A study of Mus musculus with 9 samples.

Results

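The genes described here encode the proteins of the cytosolic ribosome, measured in the central cornea of mice of 3 inbred strains. Members were the probe sets whose only gene symbol in the platform annotation of the array is Rpl or Rps followed by a number, with or without a further letter or digit, or is Rpsa, Rplp0, Rplp1 or Rplp2. Pseudogenes and the Rps6k kinases were left out. The rule found 49 genes of 18193 with a symbol of their own, on 105 of 45037 probe sets that were not array controls. Where a gene had several probe sets, the brightest by its mean over the 9 arrays gave its value. Of the 49 genes, 22 encode core proteins of the large subunit, 21 encode core proteins of the small subunit, and 6 are paralogs of core genes (Rpl3l, Rpl7l1, Rpl22l1, Rpl39l, Rps4l and Rps27l). A list of the core ribosome held 77 genes, of which 43 were members, 27 were named only on probe sets annotated to several symbols, and 7 were not analysed here. Rplp1 and Rpl5 were among the genes on probe sets with several symbols and so are not members.

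Each array stood for 1 adult male mouse at an age of 4 months, from which the 2-mm punches of the left and right central cornea, 2 per mouse, had been combined. The strains were C57Bl/6J (B6), whose corneal thickness the labels do not give, C57BLKS/J (KS), labelled as having a thin cornea, and SJL/J (SJL), labelled as having a thick cornea, with 3 mice each and no treatment named. Corneal thickness and all other differences between these inbred strains cannot be told apart in this design. The question asked of the ribosomal protein genes was how uniform their levels were among the strains and which members stood apart.

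The ribosome translates mRNA into protein and is built from a small subunit, which binds and decodes the mRNA, and a large subunit, which joins the amino acids. Each core ribosomal protein is normally present in a single copy per ribosome, apart from the acidic P proteins of the stalk, and the genes are known for high and closely matched transcript levels in most tissues. Their mRNAs typically begin with a cytosine followed by a run of pyrimidines, the 5′ terminal oligopyrimidine (TOP) motif, through which mTOR signalling controls their translation. In the cornea, the surface epithelium is renewed throughout life and so makes ribosomes continually.

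The sequence at the transcription start can show this trait, and windows of some members are given as chosen examples, not as a sample of the family. RefSeq start windows of GRCm38.p6 are given from 10 bases before to 20 bases after the start, 5′ to 3′ along the gene, with the longest run of pyrimidines in capitals. The first 4 are core members, Rps9 has a probe set that fell in SJL, and the last 2 are the paralogs that passed the test in a strain contrast.
Rpl35 (chr2:39005112-39005141, minus strand): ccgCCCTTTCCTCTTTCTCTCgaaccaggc
Rpl14 (chr9:120571507-120571536, plus strand): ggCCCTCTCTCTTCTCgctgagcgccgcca
Rplp2 (chr7:141447641-141447670, plus strand): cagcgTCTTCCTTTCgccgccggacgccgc
Rps6 (chr4:86857348-86857377, minus strand): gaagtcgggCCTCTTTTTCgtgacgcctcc
Rps9 (chr7:3704031-3704060, plus strand): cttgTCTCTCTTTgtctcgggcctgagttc
Rpl7l1 (chr17:46782637-46782666, minus strand): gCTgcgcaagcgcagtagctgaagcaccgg
Rpl22l1 (chr3:28805498-28805527, plus strand): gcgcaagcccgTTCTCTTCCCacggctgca
The run was 18 bases long in Rpl35, 14 in Rpl14, 10 in Rplp2, Rps6 and Rpl22l1, 9 in Rps9 and 2 in Rpl7l1. In Rpl22l1 it lay after the annotated start rather than across it. The first 4 windows have a C at the start followed by at least 4 pyrimidines. Only 8 of 51 member windows (15.7%) had this, so these 4 are not typical.

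Of the 49 members, 43 had 51 RefSeq promoter windows, each from 250 bases before to 50 after an annotated start. A run of at least 6 pyrimidines within 10 bases of the start was found in 23 of the 51 member windows (45.1%) and in 20.2% of all 32851 windows. A C exactly at the start followed by at least 4 pyrimidines was found in 8 member windows (15.7%) and in 2.51% of all windows. The motif CCGGAAG, bound by ETS factors, was present on either strand in 21 member windows (41.2%), against 8.86% of all windows. The Sp1 motif GGGCGG was in 27 member windows (52.9%) and 35.7% of all windows. The YY1 motif AAGATGG was in 8 (15.7%) and 6.34%, and the TATA sequence TATAAA in 6 (11.8%) and 13.6%. These are matches of letters in windows that can overlap for genes with several starts, and no site was tested for use in the cornea.

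The deposited values are probe set intensities on a linear scale, between 3.39 and 37501, and 54.6% of them lay below 16. The upper quartile of an array was 380 to 396. Arrays give no read depth, and their number, 3 per strain, limits the precision. The corneal epithelium markers averaged 13.72 to 13.80 on the log2(intensity + 10) scale on all 9 arrays, and the stromal keratocyte markers averaged 11.88 to 12.15 in B6, 12.13 to 12.40 in KS and 11.34 to 11.70 in SJL. The corneal endothelium markers averaged 11.34 to 11.67, 11.45 to 11.73 and 11.05 to 11.37 in the same order. The conjunctiva and limbus markers averaged 8.82 to 9.04, 8.62 to 8.90 and 7.38 to 7.86. Of the 7 conjunctiva and limbus markers tested, 4 were called lower and 2 higher in SJL than in B6. The 10 keratocyte markers had a median difference of -0.14 for SJL minus B6, in a range from -2.65 to 0.10. For SJL minus KS the median was -0.39, in a range from -3.74 to 0.04. A marker with a large drop therefore weighs on the lower keratocyte average of SJL. The 11 measured retina markers averaged 7.60 on the array of KS replicate 3 and 3.91 to 3.98 on the other 8 arrays, so the differences and calls named for KS were also computed without that array. The median differences of the members without it were 0.0040 for SJL minus KS and 0.0055 for KS minus B6. In bulk tissue, fewer cells of a type and less RNA per cell cannot be told apart.

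Across the 46 members that passed the filter on dim probe sets, levels were nearly the same in the 3 strains. The median log2 difference of the members was 0.002 for SJL minus KS, 0.004 for KS minus B6 and 0.006 for SJL minus B6, and the medians over all 10956 genes tested were 0.016, 0.015 and 0.023. The median size of the difference, taken without its sign, was 0.028, 0.043 and 0.047 in the same order for the members, and 0.191, 0.162 and 0.196 for all genes. A difference within 0.1 in size was found for 34, 32 and 37 of the 46 members. These counts include Rps27 and Rpl39, whose probe sets averaged only 10.7 and 33.3, so that adding 10 before the logarithm narrowed their differences. The filter removed Rpl37, Rpl3l and Rps16, whose probe sets read between 4.30 and 5.91 on all arrays, near the lower end of the scale.

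Few members passed the test in any contrast. Called means a limma p-value under 0.05 after Benjamini-Hochberg adjustment over all 22519 probe sets tested. For SJL minus KS, 2 of 46 members were called, Rpl14 lower and Rpl7l1 higher in SJL, where 14.9% of all genes were called. For KS minus B6, 1 member was called, Rpl14 higher in KS, against 6.27% of all genes. For SJL minus B6, 2 members were called, Rpl14 and Rpl22l1, both lower in SJL, against 16.1% of all genes. The moderated F-test over the 3 strain means called Rpl14 and Rpl7l1, against 19.4% of all genes. At an unadjusted limma p under 0.05 the counts were 4, 6 and 4 members in the contrasts and 5 in the F-test, beside 3096, 2291, 3289 and 3716 of the 10956 genes. Without KS replicate 3, the counts called were 1 for SJL minus KS, 1 for KS minus B6 and 0 for SJL minus B6, against 10.2%, 3.94% and 13.2% of all genes. Without KS replicate 2, the number of all genes called fell from 1630 to 1053 for SJL minus KS and from 687 to 387 for KS minus B6. Settings of the fit also moved these small counts, from 0 to 5 members for SJL minus B6 and from 1 to 6 for SJL minus KS.

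Groups of 3 arrays that do not overlap were counted as well. All 3 SJL arrays lay above all 3 KS arrays for 5 members and below for 8, together 28.3% of 46, where 35.5% of all genes were separated in this way. KS lay above B6 for 8 members and below for 6, together 30.4%, and 31.1% of all genes were separated. SJL lay above B6 for 6 members and below for 4, together 21.7%, and 32.8% of all genes were separated.

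**Figure D1:**
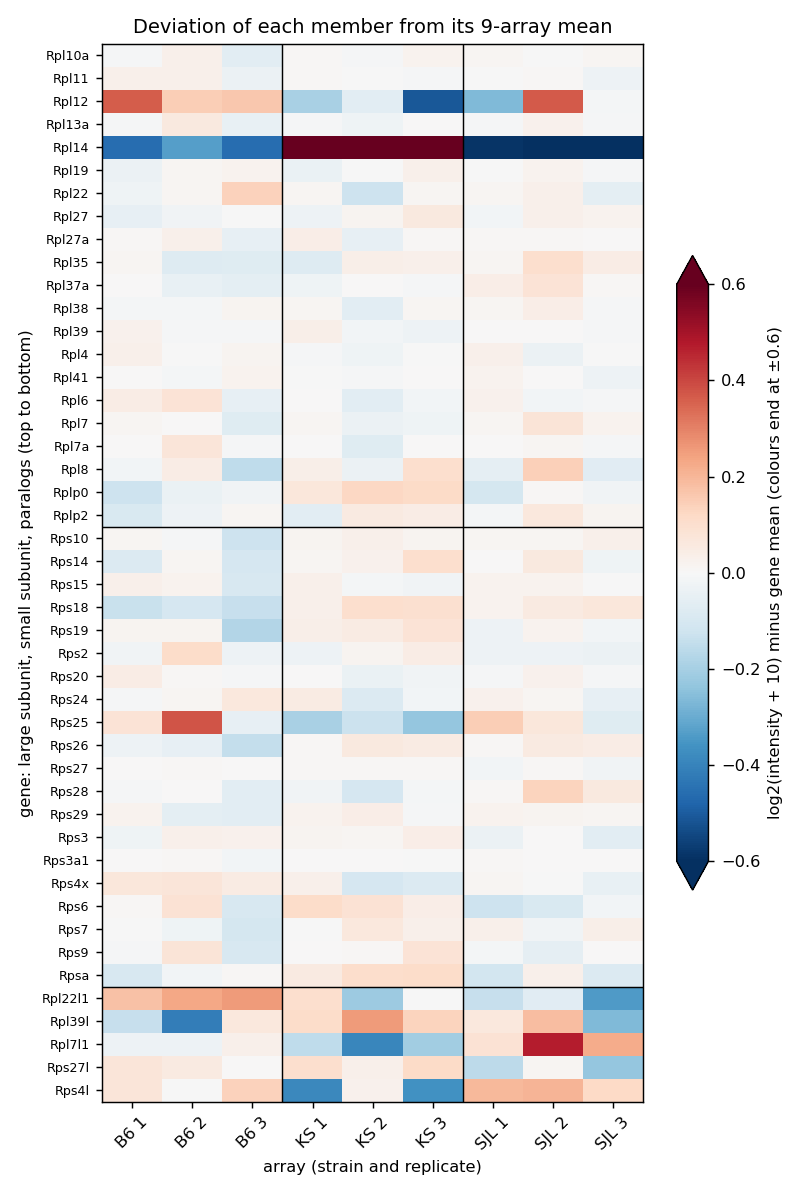
Each row is a tested member, from large subunit to small subunit to paralogs, and each column an array, 3 per strain. Colour gives log2(intensity + 10) minus the mean of that gene over the 9 arrays, red above and blue below, ending at 0.6 in either direction. Most rows are pale throughout, Rpl14 is red on the 3 KS arrays and blue on the other 6, and the paralogs at the bottom carry stronger colours than most core members.

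The spread among mice of the same strain was small as well. The median within-strain standard deviation on the log2 scale was 0.044 for the 46 members and 0.173 for all genes. The median coefficient of variation of the members was 3.31% in B6, 2.59% in KS and 2.10% in SJL, against 10.95%, 7.80% and 12.6% for all genes. The highest of the 9 arrays was less than 1.2 times the lowest for 37 of 46 members (80.4%) and for 582 of 10956 genes (5.31%).

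Bright probe sets vary little in general, and most members are bright, so the members were also set beside other bright genes. An intensity of 10000 or above, a level chosen after the values were seen, was reached by the mean of 35 members and of 243 other genes. The members were still brighter, with a median level of 20347 against 12361. The median within-strain standard deviation was 0.040 for those 35 members and 0.064 for the other 243 genes. The median distance between the highest and the lowest strain mean was 0.054 for the bright members and 0.118 for the other bright genes. The highest array was under 1.2 times the lowest for 33 of the 35 bright members (94.3%) and for 124 of the 243 others (51.0%). Exactly equal deposited values on at least 2 arrays occurred for 15 of the 35 bright members (42.9%) and 50 of the 243 others (20.6%). How far the summary and scaling before deposit, or the upper end of the intensity scale, contributed to this narrow spread was not tested.

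None of the 35 bright members was called in any contrast. Their log2 differences ran from -0.21 to 0.11 for SJL minus KS, from -0.11 to 0.20 for KS minus B6 and from -0.17 to 0.17 for SJL minus B6. Of all 278 bright genes, 3.96% were called for SJL minus KS, 1.44% for KS minus B6, 4.32% for SJL minus B6 and 5.40% by the F-test, so a count of 0 of 35 lies near that background. By limma, 1 bright member in each contrast had an unadjusted p under 0.05. It was Rps27l for SJL minus KS and Rps18 for both contrasts with B6. With an intensity trend in the variance prior, 1 bright member was called in each contrast, and with array weights 2 were called for SJL minus KS and 1 for SJL minus B6. Over all 21 alternatives, some of which use other probe sets, the count ran from 0 to 2 for SJL minus KS, 0 to 1 for KS minus B6 and 0 to 2 for SJL minus B6. Across the bright members, the 95% intervals of the difference together spanned -0.41 to 0.36, so differences of that size were not excluded for every gene.

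**Figure D2:**
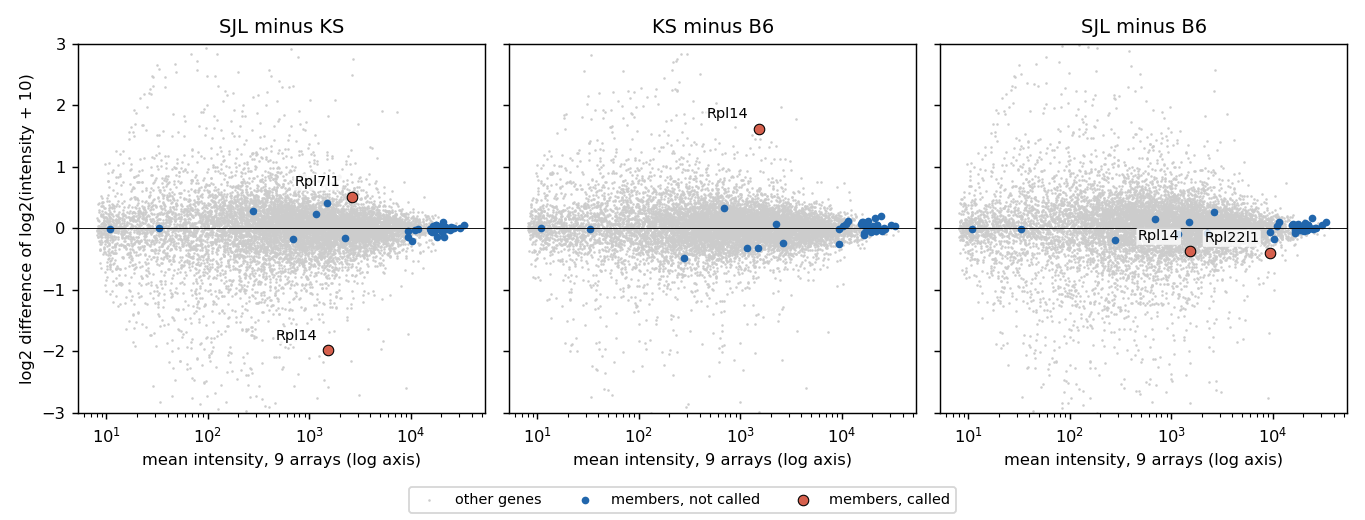
Each panel is a contrast and plots the log2 difference of log2(intensity + 10) against the mean intensity over 9 arrays on a log axis, 1 point per tested gene, with the vertical axis ending at 3 in either direction. Blue points are members that were not called, which gather close to 0 at the bright end, and the outlined red points are the called members Rpl14, Rpl7l1 and Rpl22l1.

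The core genes of the large subunit had a median range of strain means of 0.044, against 0.069 in the small subunit. Rpl14 and Rpl12 stood apart in the large subunit, with ranges of 1.98 and 0.48. Of its 21 tested core members, 18 differed by no more than 0.1 in size for SJL minus KS, 18 for KS minus B6 and 19 for SJL minus B6. Rpl14 alone was called. The same counts in the small subunit were 16, 13 and 18 of 20. Rpl41, a very short peptide of the large subunit, read 21490, 21288 and 21739 in B6, 21413, 21374 and 21490 in KS, and 21798, 21490 and 20995 in SJL. The groups overlapped fully, and its range of strain means was the smallest among the 46 tested members, at 0.005. Rpl19 (0.009), Rpl27a (0.009) and Rpl11 (0.018), an activator of the p53 pathway when free of the ribosome, had ranges of strain means of similar size. Rpl35, at the exit of the peptide tunnel, read 33368, 31432 and 31478 in B6, 31429, 33905 and 33806 in KS, and 33364, 35494 and 34153 in SJL, and it was not called in any contrast (adjusted limma p of 0.456 or more).

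The P stalk recruits the elongation factors that act on the ribosome, and Rplp0 is its base. Rplp0 read 19600, 20826 and 21055 in B6, 22419, 23316 and 23144 in KS, and 19852, 21486 and 21055 in SJL. All 3 KS arrays lay above the other 6. The difference was 0.16 ± 0.08 (SE) for KS minus B6 and -0.14 ± 0.08 for SJL minus KS, with adjusted limma p of 0.289 and 0.262, so it was not called. The differences were 0.16 and -0.14 without KS replicate 3. Rplp2, its acidic partner, read 28829 to 30997 in B6, 29415 to 31869 in KS and 30488 to 32061 in SJL, with overlapping groups.

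In the small subunit none of the 20 tested core members was called by limma in any contrast, and 0, 2 and 1 had an unadjusted p under 0.05 for SJL minus KS, KS minus B6 and SJL minus B6. Rpsa, which doubles as the laminin receptor precursor, gave a pattern like that of Rplp0, with 17021, 18007 and 18264 in B6, 18885, 19558 and 19678 in KS, and 16863, 18603 and 17192 in SJL. Its KS arrays were all above the other 6, and the difference for SJL minus KS was -0.14 ± 0.08 (SE), adjusted limma p 0.274, and -0.13 without KS replicate 3. Rps18, in the head of the subunit, read 22100, 22612 and 22009 in B6, 24761, 25964 and 25864 in KS, and 24581, 25136 and 25349 in SJL. Its B6 arrays were the 3 lowest, and the difference of 0.20 ± 0.07 for KS minus B6 had an adjusted limma p of 0.173, and it was 0.19 without KS replicate 3. Rps3a1, which lies near the mRNA exit, had the smallest within-strain standard deviation of the 46 tested members, with all 9 arrays between 25695 and 26170. Rps6, the substrate of S6 kinase, read 2093 to 2381 in B6, 2302 to 2416 in KS and 2052 to 2216 in SJL, with SJL below KS on all arrays and an adjusted limma p of 0.254.

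**Figure D3:**
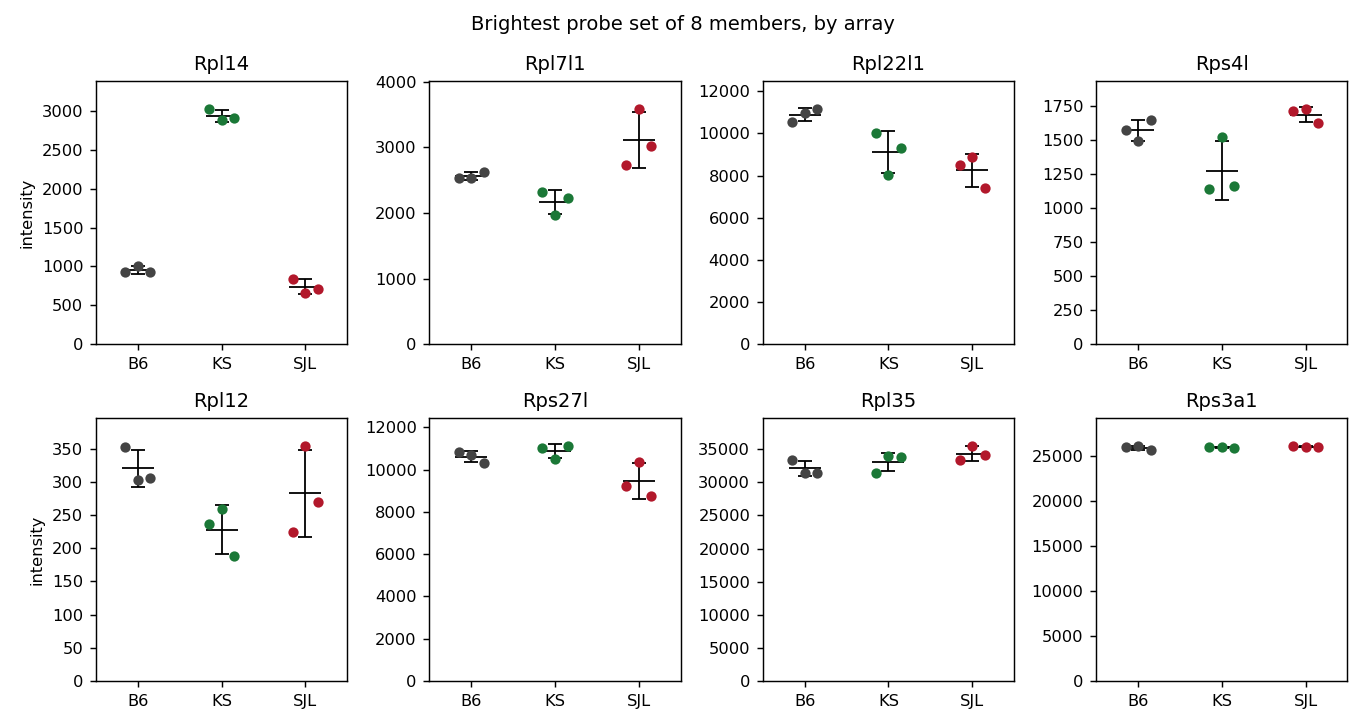
Deposited intensity of the brightest probe set of 8 members on each array, with the vertical axis of each panel starting at 0, points for the 3 mice of a strain, and a bar with whiskers for the mean and standard deviation. KS is about 3 times as high as B6 for Rpl14, the paralogs and Rpl12 differ by smaller amounts, and Rpl35 and Rps3a1 are level across strains.

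Rpl14, a protein on the surface of the large subunit, was the outlier of the family. Its probe set 1422128_at read 924, 1012 and 924 in B6, 3022, 2878 and 2913 in KS, and 844, 659 and 713 in SJL. All 3 KS arrays were far above the other 6, and all 3 SJL arrays were below all 3 B6 arrays. The mean was 953 ± 50.5 (SD, n = 3) in B6, 2938 ± 75.4 in KS and 739 ± 95.3 in SJL. The difference was -1.98 ± 0.10 (SE) for SJL minus KS, with a 95% interval from -2.22 to -1.75 and an adjusted limma p of 6.2e-06. It was 1.61 ± 0.10 for KS minus B6, a fold of 3.06, with an adjusted limma p of 3.8e-05. Without KS replicate 3 the values were -1.99 and 1.62, and both were still called. The smaller difference of -0.37 ± 0.10 for SJL minus B6 had an adjusted limma p of 0.0456 and was lost in 13 of 21 alternatives, among them leaving out KS replicate 3 (0.0784).

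The other probe sets that name Rpl14 did not show this pattern. There were 5 of them, each annotated jointly to Rpl14 and its pseudogene Rpl14-ps1, so that their signal cannot be given to Rpl14 alone. The brightest of them, 1438507_x_at, read 26839, 26115 and 26215 in B6, 26063, 26900 and 26852 in KS, and 27056, 29866 and 28079 in SJL. Another, 1426793_a_at, read 19254 to 20304 in B6, 20807 to 22206 in KS and 21017 to 21835 in SJL. None of these joint probe sets was called in any contrast, with differences for SJL minus KS between 0.02 and 0.11 on the log2 scale. The call for Rpl14 therefore rests on 1422128_at, the only probe set with that symbol alone.

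The paralogs varied more than the core members. The median distance between the highest and the lowest strain mean was 0.403 for the 5 tested paralogs and 0.054 for the 41 tested core members, and the median within-strain standard deviation was 0.136 and 0.040. Their probe sets were dimmer, with a median level of 2614 against 18575, and dim probe sets vary more on these arrays in general. Rpl7l1, a relative of Rpl7 with a role in making the large subunit, read 2526, 2526 and 2631 in B6, 2318, 1962 and 2229 in KS, and 2735, 3580 and 3014 in SJL. All SJL arrays lay above B6 and all B6 arrays above KS. It was higher in SJL than in KS by 0.51 ± 0.12 (SE), adjusted limma p 0.0189. Without KS replicate 3 the difference was 0.53, with an adjusted limma p of 0.0526, without KS replicate 2 it was 0.44 (0.0741), and without SJL replicate 3 it was 0.53 (0.0526).

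Rpl22l1, the paralog of Rpl22, read 10552, 10967 and 11144 in B6, 10009, 8037 and 9327 in KS, and 8483, 8897 and 7387 in SJL. B6 was above the other 2 strains on every array, and KS and SJL overlapped. It was lower in SJL than in B6 by 0.40 on the log2 scale, -0.40 ± 0.11 (SE), adjusted limma p 0.0402, a call lost in 10 of 20 alternatives, among them leaving out KS replicate 3 (0.0686). Its partner Rpl22 itself read 16328 to 18291 in B6, 15268 to 16769 in KS and 15958 to 16975 in SJL, with overlapping groups.

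The other 3 tested paralogs were not called. Rps4l, a relative of the X-linked Rps4x, read 1570, 1491 and 1646 in B6, 1141, 1523 and 1158 in KS, and 1710, 1725 and 1622 in SJL. SJL was above KS on all arrays by 0.41 ± 0.12 (SE), adjusted limma p 0.0516, a value that passed in 7 of 21 alternatives. Without KS replicate 3 it was 0.35, with an adjusted limma p of 0.169. Rps27l, a p53-induced relative of Rps27, read 10313 to 10818 in B6, 10520 to 11126 in KS and 8765 to 10388 in SJL, so that SJL lay below KS on all arrays, with a difference of -0.21 ± 0.09 and an adjusted limma p of 0.162, and -0.19 without KS replicate 3. Rpl39l, known from male germ cells as a relative of Rpl39, read 506 to 710 in B6, 734 to 813 in KS and 563 to 772 in SJL. Rpl3l, the form of Rpl3 found in heart and skeletal muscle, read 4.58 to 4.81 on all 9 arrays and was not tested.

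Some core members were represented by a dim probe set only because their bright probe sets carry several symbols. Rps16 read 4.30 to 4.42 on the probe set of its own, whereas 1437196_x_at, annotated jointly with a pseudogene and another locus, read 13733 to 15117. Rps27 read 10.4 to 10.9 alone and 24901 to 26731 on 1415716_a_at, shared with Rps27rt. Rpl39 read 32.3 to 34.3 alone and 18271 to 22049 on 1450840_a_at, shared with Gm32211. Rpl12 read 188 to 354 alone and 18973 to 19930 on its brightest joint probe set, and Rps25 read 983 to 1503 alone and 23080 to 25062. Intensities of different probe sets are not on a common scale of transcript amount, so the low values above say nothing of how much of these mRNAs the cornea held.

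Among the tested core members, Rpl12 and Rps25 had the widest range of strain means after Rpl14. Rpl12, a protein of the stalk base, read 353, 302 and 306 in B6, 236, 260 and 188 in KS, and 225, 354 and 270 in SJL. KS was below B6 on all arrays by -0.48 ± 0.18 (SE), adjusted limma p 0.185, and by -0.35 without KS replicate 3, and the joint probe set for Rpl12 varied between arrays far less. Rps25, used in translation from internal entry sites, read 1223, 1503 and 1114 in B6, 1010, 1056 and 983 in KS, and 1280, 1213 and 1098 in SJL. KS was below the other 6 arrays, and the difference of -0.32 ± 0.12 for KS minus B6 had an adjusted limma p of 0.196, and it was -0.30 without KS replicate 3.

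Of the 49 members, 24 had at least 2 probe sets, and probe sets of the same gene did not always move together. Over the 94 tested member probe sets, 5 were called for SJL minus KS, 1 for KS minus B6, 6 for SJL minus B6 and 6 by the F-test. Over the 19299 tested probe sets of other single genes, a background chosen after the counts were seen, the called shares, in the same order, were 15.5%, 5.68%, 16.1% and 19.5%. The probe sets named in the rest of this paragraph were chosen after their values were seen. Rps9, which helps to check decoding at the entry of the mRNA channel, was level on its brightest probe set 1433689_s_at, with 16668, 17711 and 15672 in B6, 16811, 16843 and 17746 in KS, and 16637, 16153 and 16775 in SJL. Its probe set 1434624_x_at read 18471, 16773 and 17236 in B6, 16293, 14542 and 15041 in KS, and 1174, 1143 and 962 in SJL. All 3 SJL arrays were therefore more than 10 times lower than the other 6 on this probe set, by -3.80 ± 0.10 (SE) against KS (adjusted limma p 9.9e-08) and -3.99 ± 0.10 against B6 (8.3e-08). The difference from KS was -3.81 without KS replicate 3 and was still called.

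Rpl7l1 showed opposite calls on its own probe sets. Beside the brightest, on which SJL was higher, 1439780_at read 212, 199 and 283 in B6, 188, 237 and 209 in KS, and 5.37, 5.10 and 5.14 in SJL. SJL was at the lower end of the scale on this probe set, with a difference of -3.86 ± 0.14 (SE) against KS (adjusted limma p 6.3e-07) and -3.97 ± 0.14 against B6 (5.7e-07). The call held in all 19 alternatives, but with SJL at the floor the size depended on the setting, from -5.09 to -2.24 against KS and from -5.21 to -2.34 against B6, so it is no measure of the fold. Leaving out KS replicate 3 gave -3.86 against KS. The remaining probe set 1426386_at read 1220 to 1624 in B6, 1243 to 1408 in KS and 1300 to 1513 in SJL, with overlapping groups. With the mean of all 3 probe sets in place of the brightest, the difference of SJL from KS turned to -1.09, a mean that includes the floor values of 1439780_at. On 1426386_at the difference was 0.07 and was not called, so higher levels in SJL passed the test on the brightest probe set only.

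Rps20, in the head of the small subunit, was level on its bright probe sets, with 24181 to 25625 over the 9 arrays on 1456436_x_at. Its dim probe set 1421935_at read 80.2, 76.1 and 115 in B6, 58.0, 60.6 and 61.4 in KS, and 46.8, 27.5 and 45.4 in SJL, and it was lower in SJL than in B6 by -1.01 ± 0.19 (SE), adjusted limma p 0.0077. The other dim probe set 1450417_a_at went the same way by -0.58 ± 0.10 (0.0055). Both calls held in all alternatives, with differences from -1.17 to -0.64 for 1421935_at and from -0.78 to -0.28 for 1450417_a_at. Rpl13a, whose phosphorylated form represses inflammatory mRNAs, was level at 25929 to 27837 on its brightest probe set. Its probe set 1433928_a_at read 2601 to 2866 in B6, 2291 to 2515 in KS and 2846 to 3569 in SJL, higher in SJL than in KS by 0.37 ± 0.10 (adjusted limma p 0.0453), a call lost in 12 of 19 alternatives, among them leaving out KS replicate 3 (0.0941). What sets these probe sets apart from others of the same gene was not tested, and probe sequences were not used here.

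**Figure D4:**
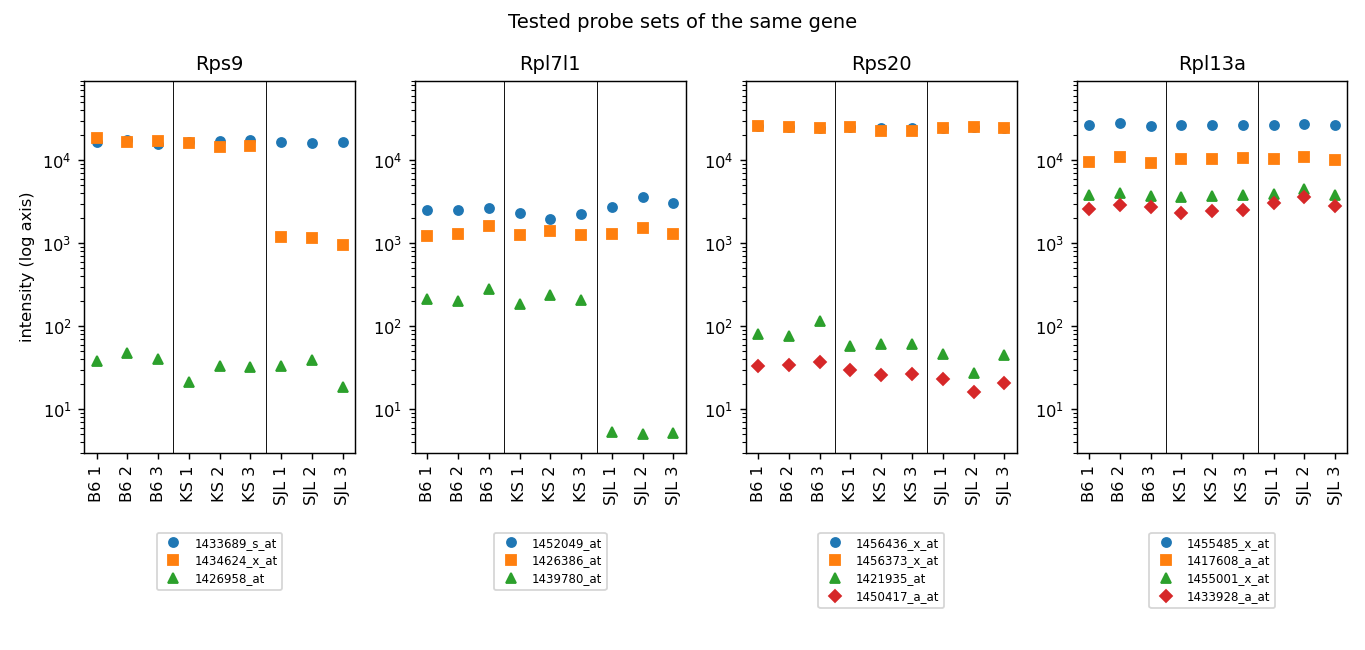
Deposited intensity on a log axis for the tested probe sets of Rps9, Rpl7l1, Rps20 and Rpl13a on each of the 9 arrays, with vertical lines between strains and a marker shape for each probe set. On 1434624_x_at of Rps9 and 1439780_at of Rpl7l1 the 3 SJL arrays drop by more than 10 times, while the brightest probe set of each gene stays within 2 times.

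Single arrays shifted the family slightly. For the 35 bright members, the median deviation of an array from the gene means ran from -0.044 on B6 replicate 3 to 0.020 on SJL replicate 2. B6 replicate 3 gave the lowest value of 16 of the 46 members and KS replicate 2 of 10, and SJL replicate 2 gave the highest value of 10. The median strain difference of the bright members was 0.003 for SJL minus KS, 0.015 for KS minus B6 and 0.017 for SJL minus B6. The largest array shift was greater than these medians, while differences of single bright members reached -0.21 for SJL minus KS and 0.20 for KS minus B6.

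Other genes of translation were taken from fixed lists to place the family. Among 13 tested elongation factors and partners none was called by limma in any contrast, as for Eef1a1, which delivers tRNA to the ribosome, at 22183 ± 843 (SD, n = 3) in B6, 22348 ± 100 in KS and 22676 ± 217 in SJL. Among 31 initiation factors, 2 were higher and 2 lower in SJL than in KS, none was called for KS minus B6, and 2 were lower in SJL than in B6. The shares of all genes called in the same contrasts were 14.9%, 6.27% and 16.1%. The counts were 1, 0 and 1 without KS replicate 3, and leaving out each array gave 1 to 4 for SJL minus KS and 0 to 3 for SJL minus B6. Eif2b3, a subunit of the exchange factor for eIF2, was higher in SJL than in KS by 0.54, a call lost without KS replicate 3 (adjusted limma p 0.114), and Eif1a, which acts in start codon scanning, was lower by -0.39. Eif5, the GTPase activator of eIF2, was lower in SJL than in B6 by -0.36. Of 25 tested regulators of ribosomal protein supply and translation none was called with all arrays included. Without KS replicate 3, 1 was called lower in KS than in B6. Leaving out each array gave 0 to 1 for SJL minus KS, 0 to 1 for KS minus B6 and 0 to 2 for SJL minus B6. Fau, whose product carries the small subunit protein eS30, read 17163 ± 735 in B6, 17529 ± 355 in KS and 17900 ± 278 in SJL and was not called.

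Ribosome assembly factors and the mitochondrial ribosome varied more. Of 55 ribosome biogenesis genes, 8 were higher and 1 lower in SJL than in KS, 3 were lower in KS than in B6, and 2 were higher and 1 lower in SJL than in B6. These are 16.4%, 5.45% and 5.45% of the list, beside 14.9%, 6.27% and 16.1% of all genes. The counts became 4, 2 and 3 without KS replicate 3, and leaving out each array gave 4 to 12, 2 to 3 and 3 to 6. Riok2, a kinase of late small subunit maturation, read 3280 ± 392 (SD, n = 3) in B6, 1319 ± 123 in KS and 3209 ± 396 in SJL, and was lower in KS than in B6 by -1.30 (-1.26 without KS replicate 3, still called). Rrs1, needed for large subunit assembly, was lower in KS than in B6 by -1.40 with or without that array, and Polr1c, a subunit of RNA polymerases I and III, was lower in SJL than in B6 by -1.15. Of 76 mitochondrial ribosomal protein genes, 5 were higher and 2 lower in SJL than in KS, none was called for KS minus B6, and 8 were higher and 1 lower in SJL than in B6. These are 9.21%, 0% and 11.8% of the list, beside the same shares of all genes. Leaving out KS replicate 3 gave counts of 1, 0 and 5, and leaving out each array gave 1 to 9, 0 to 1 and 3 to 12. Mrpl33 was lower in SJL than in KS by -0.68 (-0.65 without KS replicate 3, still called), Mrpl39 was higher by 0.59, a call lost without that array (adjusted limma p 0.0801), and Mrpl49 was higher in SJL than in B6 by 0.55. The median distance between the highest and the lowest strain mean was 0.044 for core large subunit genes, 0.069 for core small subunit genes, 0.088 for elongation factors, 0.176 for initiation factors, 0.286 for biogenesis genes and 0.269 for mitochondrial ribosomal proteins, against 0.307 for all genes. These lists also differ in intensity, and that was not matched.

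**Figure D5:**
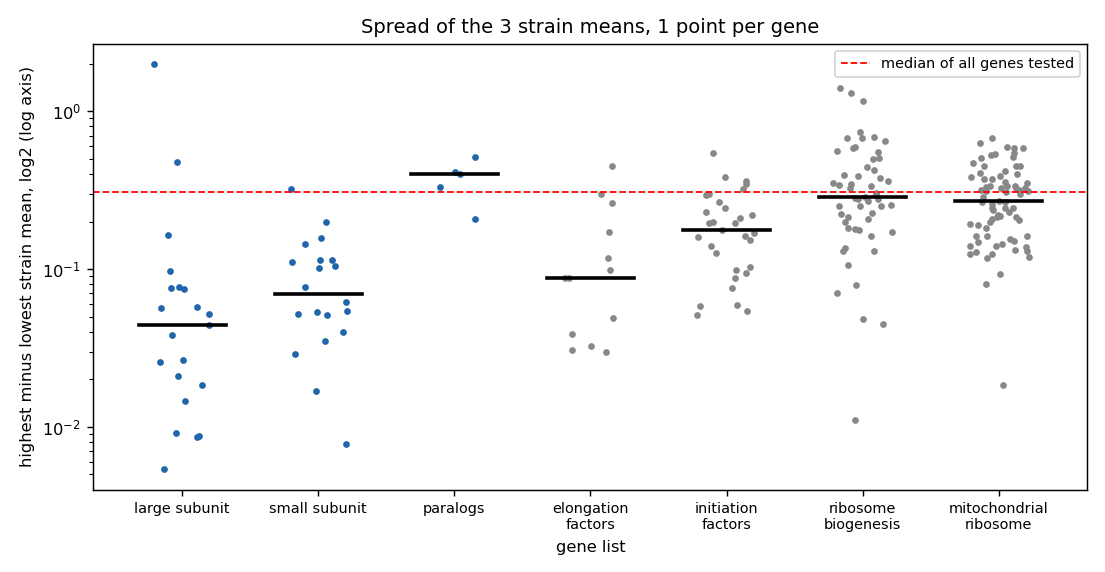
Each point is a tested gene, and the vertical log axis gives the distance between its highest and lowest strain mean of log2(intensity + 10). Black bars are list medians and the dashed red line is the median of all genes tested. Most core large and small subunit genes lie lowest, with Rpl14 at the top of the large subunit and Rpl12 next. The paralogs, the biogenesis genes and the mitochondrial ribosomal proteins lie near the line.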

How the data were processed

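Corneal RNA from 9 mice, 3 arrays per strain, was measured on Affymetrix arrays after DNase treatment, column purification and biotin labelling, per the labels' protocols. The deposited table held summarised probe set intensities on a linear scale, with an upper quartile of 380 to 396 per array. The summary, background and scaling methods are not given in the sources used here. Symbols came from the platform annotation (34945 probe sets with 1 symbol, 932 with several, 9160 with none), and a RefSeq table of GRCm38.p6 held 48 of the 49 members.

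From these values log2(intensity + 10) was computed, 64 controls and probe sets below the median of the mean log2 values were left out, and limma 3.58.1 in R 4.3.3 fitted 1 mean per strain to the 22519 probe sets left, with 6 residual degrees of freedom. P-values are two-sided and adjusted by Benjamini-Hochberg over all of them. Log2 differences understate the change of dim probe sets. With 3 arrays a side, exact permutation cannot reach 0.05. The fit was tested on simulated data.

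Named were called members, the 5 with the highest and lowest intensity, the 5 with the largest and smallest strain range, all paralogs, and Rpsa, the P proteins, Rps6, Rpl5, Rpl11 and Rpl14. In other lists up to 2 called genes were named, or the brightest. Other genes were added after their values were seen. The members, lists and rules were chosen with earlier results of these data known. Alternatives were other filters, pseudocounts, scalings, variance priors, array weights, a replicate block, other probe set rules, 6 arrays, and leaving out each array. The labels do not say that replicate numbers pair mice across strains, and no pairing was assumed. Same-numbered arrays correlated from -0.27 to 0.26 in their deviations, above 0.1 in 3 of 9 pairs, which cannot exclude a pairing. Promoter and start sequences are from RefSeq.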

Additional observations from a re-analysis of the deposited data

How the results depend on the processing

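The calls of Rpl14 for SJL minus KS and KS minus B6 held under all 21 alternatives, with differences from -2.08 to -1.91 and from 1.57 to 1.66. With a gene averaged over all its probe sets, Rpl7l1 turned to -1.09 for SJL minus KS and -1.23 for SJL minus B6, since 1439780_at enters that mean. That setting called 4 members for SJL minus KS, 5 for SJL minus B6 and 5 by the F-test. An intensity trend called 4, 2 for KS minus B6, and 5 by the F-test. Array weights, estimated gene by gene because the REML fit did not converge, called 6 for SJL minus KS and 6 by the F-test. No filter called 2 for KS minus B6 and 1 for SJL minus B6, a pseudocount of 1 called 1, and centred arrays called 0 for SJL minus B6. Only the 6 arrays compared called 1 for SJL minus KS and 0 for SJL minus B6. With the replicate block, 0 members were called for SJL minus B6 and 1 by the F-test. Leaving out each array gave 1 to 2 members for SJL minus KS, 1 for KS minus B6, 0 to 1 for SJL minus B6 and 1 to 2 by the F-test. The median difference of the members was -0.022 for KS minus B6 and 0.019 for SJL minus KS with centred arrays, and -0.0087 for SJL minus B6 with array weights. Without each array it ran from -0.0014 to 0.0190 for KS minus B6, from -0.0054 to 0.0280 for SJL minus B6 and from -0.00096 to 0.0076 for SJL minus KS. For the members named by rule, 1250 of 1293 values kept their side of the threshold, 27 lost a call, 14 gained it and 2 turned. Most of these values belong to differences that were not called to begin with, so the total says little about how stable the calls are. The lost calls were those of Rpl14 (13 of 21 alternatives) and Rpl22l1 (10 of 20) for SJL minus B6. The rest were of Rpl7l1 for SJL minus KS, lost in 4 of 21 and turned in 1. A change of sign of an uncalled difference was not counted. The further probe sets named for Rps9, Rpl7l1, Rps20 and Rpl13a are not in these numbers. Beyond what is stated here, the causes were not tested. Precision is limited by 3 arrays per strain, and probe sets near the lower end of the scale bound a level from above only.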

Other observations

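Probe sets annotated to several symbols, at least 1 of them a ribosomal protein, numbered 110, of which 100 were tested, and they can be assigned to no gene alone. They were level like the members, with a median size of the difference of 0.041 for SJL minus KS, and 6, 2 and 6 of the 100 were called for SJL minus KS, KS minus B6 and SJL minus B6, beside 15.5%, 5.68% and 16.1% of the tested probe sets of other single genes. The counts were 3, 1 and 4 without KS replicate 3, and leaving out each array gave 2 to 6, 1 to 2 and 2 to 5. The largest differences were on 1453752_at, annotated to Rpl17, Gm10362, Rpl17-ps9 and Rpl17-ps10. It read 1958, 2019 and 1914 in B6, 2095, 1635 and 1785 in KS, and 19.1, 63.3 and 16.7 in SJL. On 1423070_at, annotated to Rpl21 and 6 Gm loci, B6 stood apart, with 137, 156 and 139 in B6, 27.5, 27.4 and 26.7 in KS, and 27.5, 27.3 and 28.0 in SJL. On 1460442_at, annotated to Rps19 and Rps19-ps3, all B6 and KS arrays read only 4.74 to 4.97 and SJL read 18.9, 22.8 and 23.3. This probe set passed the filter on dim probe sets only through its SJL values, so its direction was fixed by that. The bright probe set 1453467_s_at, annotated to Rps15a and Rps15a-ps5, was higher in KS, with 12411 to 13130 in B6, 16135 to 16527 in KS and 12723 to 13372 in SJL, and an adjusted limma p of 0.0194 for SJL minus KS and 0.0303 for KS minus B6. The bright probe set 1416277_a_at, annotated to Rplp1 and Gm13777, was lower in SJL, with 15199 to 16361 in B6, 16181 to 17514 in KS and 12058 to 13868 in SJL (0.0139 against KS and 0.0431 against B6). Neither of these bright probe sets was called without KS replicate 3 in any contrast. These probe sets were picked out after their values were seen.

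Genes next to Rpl14 in the RefSeq gene order were looked up after its difference was seen. Of the 10 nearest tested genes, 5 on each side, 4 were called for SJL minus KS, 2 for KS minus B6 and 1 for SJL minus B6, and with so few genes the shares of all genes called, 14.9%, 6.27% and 16.1%, stand beside them only as a background. Leaving out each array gave 1 to 4, 0 to 4 and 1. All 4 called for SJL minus KS were lower in SJL, and the 2 called for KS minus B6 were higher in KS, as was Rpl14. Myrip is counted in both contrasts, but it passed the filter on dim probe sets only through its KS values. Its direction was fixed by that and carries no weight. Sec22c (-0.81, adjusted limma p 0.0053) and Nktr (-0.62, 0.0168) were called for SJL minus KS. Mobp was called for KS minus B6 (1.09, 0.0178) and for SJL minus B6 (1.06, 0.0092). Without KS replicate 3, 2 were called for SJL minus KS, 1 for KS minus B6 and 1 for SJL minus B6. Myrip, which links melanosomes and secretory granules to myosin, was called in both contrasts with KS, with 17.6 to 24.5 in KS and 4.64 to 4.77 on the other 6 arrays, and without KS replicate 3 it did not pass the filter on dim probe sets. Entpd3, an ectonucleotidase gene directly next to Rpl14, was lower in SJL than in KS by -2.02 (adjusted limma p 0.0373), a call lost without KS replicate 3 (0.0695). Its difference of 2.23 for KS minus B6 was not called (0.0503). Ctnnb1, the gene of beta-catenin and the direct neighbour on the other side, differed by 0.01 for SJL minus KS, -0.10 for KS minus B6 and -0.09 for SJL minus B6. B6 lay above the other strains on all arrays, and Ctnnb1 was not called. Rpsa, 5 genes away on the side of Entpd3, was not called either. Among the 10 nearest tested genes, 2, 0 and 3 were called around Rpl7l1, 2, 1 and 1 around Rpl22l1, and 0, 0 and 2 around Rps9, in the same order of contrasts. Leaving out each array gave 2 to 3, 0 and 1 to 4 around Rpl7l1, 2 to 3, 1 to 2 and 1 to 2 around Rpl22l1, and 0 to 1, 0 and 1 to 3 around Rps9.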
